A study of Mus musculus with 8 samples.

Results

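The alpha-arrestins measured here were *Txnip*, *Arrdc1*, *Arrdc2*, *Arrdc3* and *Arrdc4*, 5 of the 24059 gene symbols in the count files. They were taken by symbol, and the family was selected on measured values, with earlier results of the same contrast known, so its differences between the groups are described without p-values. All 5 passed the filter on low counts, which left 14934 genes for the comparison over all genes. The symbol *Arrdc5* was not analysed here.

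The data are poly(A) RNA-seq counts from bone marrow-derived mast cells (BMMCs) of C57BL/6 mice, which are bone marrow cells grown in IL-3 until they are mast cells. Each culture was electroporated either with a ribonucleoprotein (RNP) of Cas9 and guides against *Zc3h12a* (labelled *Zc3h12a* KO) or with a non-targeting scrambled RNP (labelled *Zc3h12a* WT), and RNA was taken from resting cells. *Zc3h12a* encodes Regnase-1, an RNase that degrades inflammatory mRNAs, and the study asked what its loss does in mast cells. There were 4 samples per group, numbered 1 to 4, and the series design describes cultures from separate mice that received both RNPs, so samples were paired by number. Edited cells were a pool and not a clone.

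Alpha-arrestins are adaptor proteins with an arrestin fold. The *Arrdc* proteins carry PPxY motifs that bring NEDD4-type ubiquitin ligases to membrane proteins such as receptors and transporters, which are then sorted into endosomes. TXNIP also binds thioredoxin and holds glucose uptake down by promoting internalization of GLUT1, and *Txnip* and *Arrdc4* are textbook targets of MondoA and MLX, which read glucose-derived metabolites. FOXO factors are also known regulators of *Txnip*.

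The total counts ranged from 19610240 to 33986762 per sample. Of the 10 mast cell markers examined, all were detected, and they summed to 55600 to 65600 CPM (CPM being counts divided by the TMM-scaled library size in units of 1000000) in scrambled RNP samples and 53300 to 56600 CPM in *Zc3h12a* RNP samples. Each of the 10 was estimated lower in *Zc3h12a* RNP, with a median log2 fold change of -0.12 and 0 called. Over all 14934 genes tested, 6299 were estimated lower and 8635 higher, and 0 were called. Basophil markers summed to 1770 to 2570 CPM. Macrophage markers summed to 7.91 to 9.86 CPM and 8.74 to 10.2 CPM, and neutrophil, eosinophil, B cell and erythroid markers to at most 4.18 CPM in any sample, from 3 of 7 neutrophil, 2 of 5 eosinophil, 4 of 4 B cell and 4 of 5 erythroid markers. The other markers of these lists, among them *S100a8*, *Elane* and *Epx*, were not analysed here, so these sums are incomplete. The *Zc3h12a* mRNA did not tell the groups apart, with 24.95 to 39.3 CPM in scrambled RNP samples and 26.8 to 41.1 CPM in *Zc3h12a* RNP samples. An RNP edit changes the DNA and need not lower the mRNA. Since these are bulk samples, fewer cells of a type and less RNA per cell cannot be told apart.

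Each of the 5 genes has 8 exons in its canonical transcript in the GENCODE M39 annotation of GRCm39, the mouse build that the study also used. *Txnip* lies on chromosome 3 at 96465267 to 96469201 on the plus strand. *Arrdc1* lies on chromosome 2 (24815286 to 24825338, minus strand), *Arrdc2* on chromosome 8 (71287770 to 71292364, minus strand), *Arrdc3* on chromosome 13 (81031409 to 81044161, plus strand) and *Arrdc4* on chromosome 7 (68386742 to 68398999, minus strand). The antisense lncRNA *Gm15441* spans the whole of *Txnip*, and *Arrdc3* overlaps the lncRNAs *1700023H06Rik* and *Gm60094*.

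The promoters of the family were read from 250 bases before to 50 bases after the annotated start, because *Txnip* and *Arrdc4* are known for carbohydrate response elements there. The pattern CACGNG, 5 bases of any kind and CACGNG again, on either strand, was used for the paired E-box parts of such an element (paired CACGNG words). It was present in 11 of 17399 protein-coding promoters (0.0632%), and *Txnip* was the only member among them. The pattern was chosen after sequences or values were seen, and elements with other letters or spacing were not searched. Nothing is therefore read from its match in *Txnip* or its absence from the other members. The FOXO word GTAAACA, on either strand, was present in *Txnip* and in 2.91% of promoters, and the palindromic E-box CACGTG was present in *Arrdc4* and in 8.78% of promoters. The 3 windows that hold these words are shown on the strand of the gene, with the searched word in capitals. The spacer of the paired CACGNG words is in capitals too.
Txnip paired CACGNG words, chr3:96465181-96465210, plus strand: aactgtgCACGAGGGCTGCACGAGcctcca
Txnip FOXO word, chr3:96465140-96465169, plus strand: gttggaggcctgGTAAACAagggccaagta
Arrdc4 E-box, chr7:68399162-68399191, minus strand: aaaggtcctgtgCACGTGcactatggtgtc
The first window put its capitals at positions -79 to -63 from the start of *Txnip*, the second at -115 to -109, and the third at -180 to -175 from the start of *Arrdc4*. The word CCAAT, bound by NF-Y and searched on either strand, occurred 6 times in *Arrdc4*, 3 times in *Arrdc2*, 2 times in *Txnip* and 1 time in *Arrdc3*, against at least 1 time in 38.8% of all promoters. The window of *Arrdc1* held none of the words searched, which says only that these letters are not in it. The pattern TATANAA was found in *Txnip* at -21 to -15 and in 5.22% of promoters. The matches describe sequence and were not tied to any binding measurement.

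Levels differed widely among the 5 genes. Scaled to transcript length, the median over the 8 samples was 286 CPM per kb for *Txnip*, 22.1 for *Arrdc1*, 5.37 for *Arrdc3*, 2.92 for *Arrdc2* and 1.04 for *Arrdc4*. *Txnip* was 12.9-fold above *Arrdc1* and *Arrdc1* was 4.11-fold above *Arrdc3* by these medians, and in neither step did the ranges over samples overlap. *Arrdc3* exceeded *Arrdc2* in 7 of 8 samples with overlapping ranges (3.56 to 9.16 and 1.60 to 4.84 CPM per kb). *Arrdc2* exceeded *Arrdc4* within each of the 8 samples, although their ranges over samples overlapped (*Arrdc4*, 0.774 to 2.25 CPM per kb).

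**Figure D1:**
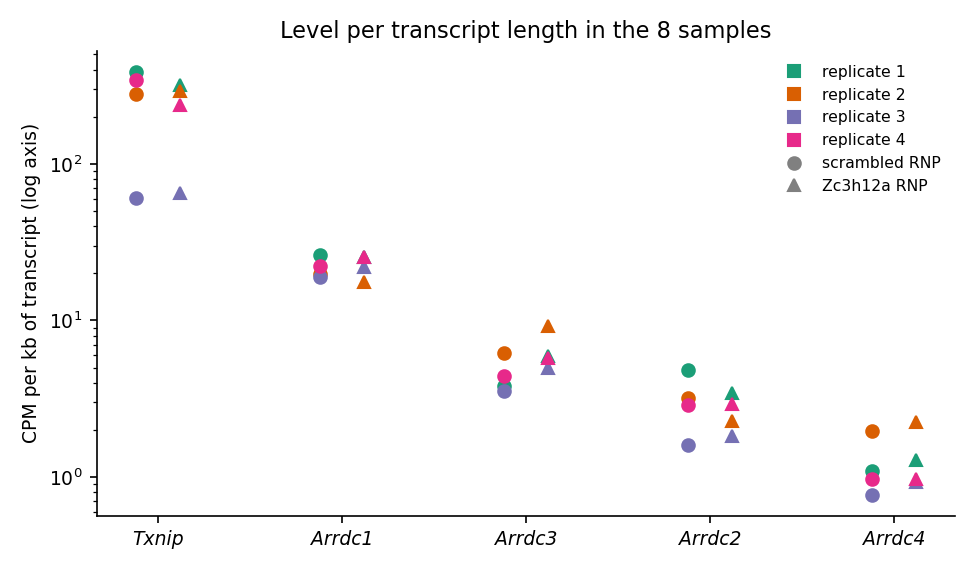
Level of each alpha-arrestin in CPM per kb of canonical transcript (log axis), with 1 point per sample, circles for scrambled RNP, triangles for Zc3h12a RNP and colours for replicate numbers. Txnip had the highest level in all 8 samples, and its 2 samples of replicate 3 lay at 60.6 and 64.8 CPM per kb, apart from the other 6.

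*Txnip*, the thioredoxin-binding member, was measured at 1095, 793, 172 and 968 CPM in scrambled RNP replicates 1 to 4 and at 905, 828, 184 and 675.5 CPM in *Zc3h12a* RNP replicates 1 to 4. The low samples were those of replicate 3 in both groups, and the groups overlapped fully. The mean ± SD was 757 ± 409 CPM in scrambled RNP and 648 ± 324 CPM in *Zc3h12a* RNP (n = 4 each). By length-scaled level *Txnip* ranked between 140 and 232 among the genes tested in 6 samples, and ranked 1016 and 904 in scrambled and *Zc3h12a* RNP replicate 3. It supplied 87.1% to 91.8% of the summed length-scaled level of the family in those 6 samples, against 70.9% and 68.6% in replicate 3. Its counts, 4366 to 34548 per sample, were the largest of the family.

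*Arrdc1*, which is known for recruiting TSG101 to release vesicles from the plasma membrane, was the steadiest member. Its level was 45.6, 34.5, 33.1 and 38.7 CPM in scrambled RNP replicates 1 to 4 and 44.0, 30.6, 38.3 and 44.4 CPM in *Zc3h12a* RNP. The groups overlapped, and replicate 1 was among the 2 highest samples of each.

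*Arrdc2*, a less studied adaptor of the family, was measured at 11.4, 7.56, 3.78 and 6.85 CPM in scrambled RNP replicates 1 to 4 and at 8.08, 5.37, 4.32 and 6.91 CPM in *Zc3h12a* RNP. Replicate 1 was highest and replicate 3 lowest in both groups. These values rest on 96 to 360 counts per sample.

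*Arrdc3*, an adaptor linked to the traffic of cell surface receptors, had 16.0, 25.7, 14.8 and 18.5 CPM in scrambled RNP replicates 1 to 4. The *Zc3h12a* RNP samples had 24.8, 38.3, 20.8 and 24.1 CPM. Every *Zc3h12a* RNP sample was above the scrambled RNP sample of its own number. Across numbers the groups overlapped, since scrambled RNP replicate 2 was above 3 of the *Zc3h12a* RNP samples. The mean ± SD was 18.8 ± 4.88 CPM in scrambled RNP and 27.0 ± 7.73 CPM in *Zc3h12a* RNP, from 377 to 883 counts per sample.

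*Arrdc4*, which shares its regulation by glucose with *Txnip*, was the lowest member. Its levels were 4.31, 7.73, 3.03 and 3.81 CPM in scrambled RNP replicates 1 to 4 and 5.06, 8.80, 3.66 and 3.798 CPM in *Zc3h12a* RNP, from 77 to 232 counts. Replicate 2 was highest and the groups overlapped.

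**Figure D2:**
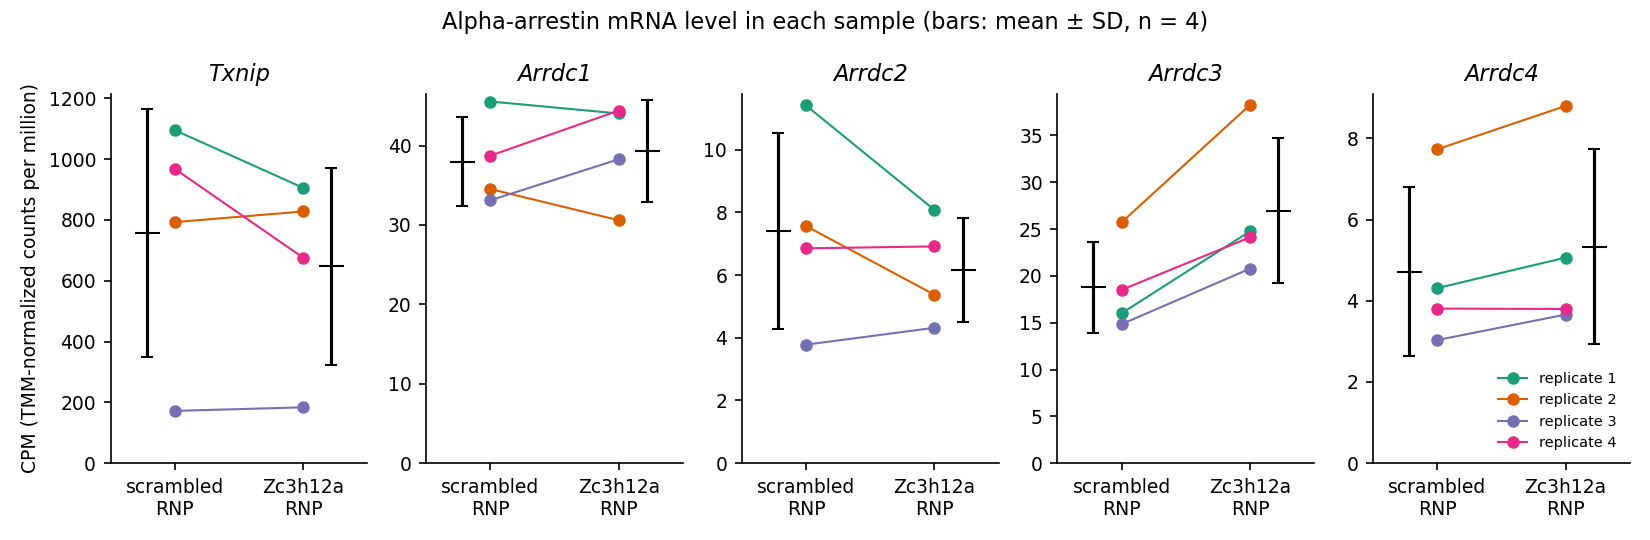
Level of each alpha-arrestin in CPM (vertical axis, from 0) in scrambled RNP and Zc3h12a RNP samples, with lines joining samples of the same replicate number and black bars for mean ± SD (n = 4). The 4 lines of Arrdc3 all go up, and the Txnip line of replicate 3 stays near 172 to 184 CPM while the others lie at 675.5 CPM or more.

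*Txnip* ranged more widely between replicate numbers than between RNPs. Averaged over both RNPs, its log2 level ranged by 2.49 between replicates 1 and 3, a 5.6-fold difference, and 0.6% of the 9668 genes with a mean log2 CPM of 2 or more had a range as large. The same range was 1.23 for *Arrdc2* (reached by 7.94% of genes), 1.29 for *Arrdc4* (6.77%), 0.84 for *Arrdc3* (26.3%) and 0.46 for *Arrdc1* (67.2%), and the median over these genes was 0.60. *Arrdc2* shared its high and low replicates with *Txnip*. *Arrdc3* and *Arrdc4* had theirs in replicates 2 and 3.

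Replicate 3 deviated from the other replicates by -2.29 on the log2 scale for *Txnip*, by -0.88 for *Arrdc2* and by -0.65 for *Arrdc4*. The median deviation of replicate 3 over all these genes was -0.04. Replicate 2 deviated by 1.07 for *Arrdc4* and by 0.69 for *Arrdc3*, against a median of 0.14. Replicate 3 was singled out after its *Txnip* values were seen, and what set it apart was not tested. The mast cell markers summed to 55600 and 56600 CPM in the 2 samples of replicate 3, the lowest sum of the scrambled RNP group and the highest of the *Zc3h12a* RNP group. The antisense *Gm15441* was also lowest in replicate 3, with 15 and 16 counts against 28 to 63 in the other samples. *Txnip* had 279 to 726 counts for each count of *Gm15441*. Whether reads were counted by strand is not given in the sources used here, so reads of the 2 genes cannot be told apart where they overlap.

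Of the 11 genes whose promoters held paired CACGNG words, 9 were tested. *Fnip1*, a folliculin partner in nutrient sensing, deviated by -0.18 in replicate 3, *Man2b2* by -0.23, *Rbbp4* by -0.17, *Ddhd2* by -0.32, *Zbtb8os* by 0.36 and *A430005L14Rik* by 0.39. The deviation of *Txnip* was larger in size than those of the other promoters of this kind that were tested, among which *Tdrd9* and *Zmynd12* were barely expressed. Since replicate 3 was singled out for its *Txnip* values, nothing is read from this comparison.

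Over the 8 samples the log2 CPM of *Txnip* and *Arrdc2* had a Pearson correlation of 0.857, and that of *Arrdc3* and *Arrdc4* of 0.83. The other pairs of members lay between -0.428 (*Arrdc1* and *Arrdc4*) and 0.659 (*Arrdc1* and *Arrdc2*). The 8 points come as 4 pairs of cultures, so the correlations describe differences between replicate numbers more than differences between RNPs.

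Among 9667 other genes, those most like *Txnip* over the 8 samples were *E130317F20Rik* (Pearson correlation 0.993), *Tmppe* (0.991), *Arrb1* (0.986), *Bcdin3d* (0.986) and *Fam78a* (0.984). *Arrb1* encodes beta-arrestin 1, a relative of the alpha-arrestins that desensitizes G protein-coupled receptors. *Arrb1* had 260, 242, 154 and 270.4 CPM in scrambled RNP replicates 1 to 4 and 244.5, 243, 149.9 and 212 CPM in *Zc3h12a* RNP. It was low in both samples of replicate 3, by a smaller factor than *Txnip*.

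The gene most opposite to *Txnip* was *Srxn1* (-0.977), sulfiredoxin, which repairs overoxidized peroxiredoxins. *Srxn1* had 61.9, 63.5, 251 and 73.4 CPM in scrambled RNP replicates 1 to 4. It had 85.2, 72.6, 262 and 103 CPM in *Zc3h12a* RNP. Its high samples were the ones in which *Txnip* was low. Of the 15 genes of the thioredoxin system, 3 were below the other replicates in replicate 3, with a median deviation of 0.13. The FOXO-responsive genes had a median deviation of -0.54 in replicate 3 (7 of 9 genes below), and all 5 glucose transporters of sufficient level lay below, with a median of -0.25. Of the pathway lists described below, only the thioredoxin system had a median above 0 there. Genes below were 8 of 9 for the NEDD4 family (median -0.23), 6 of 7 glucose-responsive genes (-0.24), 6 of 9 MLX and MAX factors (-0.23) and 3 of 3 cargo genes (-0.275). The share of all genes below is not given here.

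**Figure D3:**
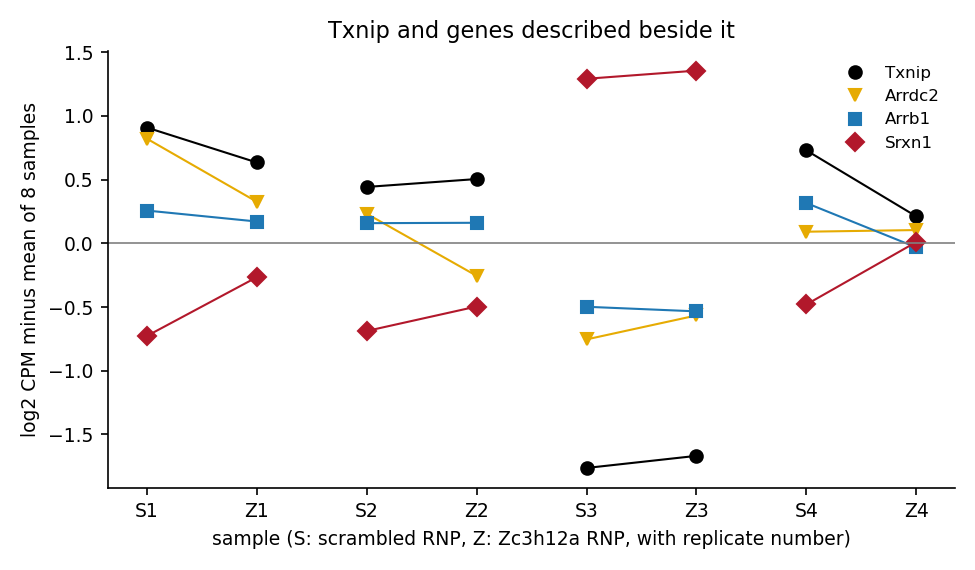
Log2 CPM minus the mean of the 8 samples (vertical axis) for Txnip, Arrdc2, Arrb1 and Srxn1, by sample, with S for scrambled RNP, Z for Zc3h12a RNP and the replicate number, and lines joining samples of 1 number. In replicate 3 Txnip (172 and 184 CPM), Arrdc2 and Arrb1 are lowest and Srxn1 (251 and 262 CPM) is highest.

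Genes most like *Arrdc2* included *Dcaf11* (0.975), *Marchf8* (0.973), *Fbxo3* (0.968) and *Slc44a2* (0.967). *Arrdc1* was most like *Acap1* (0.979), *Tmem165* (0.972), *Ptbp3* (0.97), *Adipor2* (0.965) and *Dipk1a* (0.958). *Arrdc3* had its closest genes at lower correlations, which were *Ptprj* (0.95), *Polr3b* (0.935), *Plxna2* (0.929), *Mycbp2* (0.929) and *Ipo8* (0.923). *Arrdc4* was most like *Tank* (0.986), *Ikzf4* (0.983), *Slc4a7* (0.98), *Src* (0.98) and *Phf20l1* (0.979). No gene named here was shared between members.

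Between *Zc3h12a* RNP and scrambled RNP, *Arrdc3* had the largest difference of the family, with a log2 fold change of 0.52 ± 0.08 (SE), a fold of 1.43. Its differences within pairs 1 to 4 were 0.63, 0.57, 0.48 and 0.38 on the log2 scale (SD 0.11), and it was higher in 4 of 4 pairs. For comparison, 4.98% of the 14934 genes tested were higher in all 4 pairs and 8.54% were lower in all 4, and since the family was chosen from this contrast nothing is read from these shares.

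The other members did not keep 1 direction over the pairs. *Txnip* had a log2 fold change of -0.16 ± 0.12 (SE), with -0.28, 0.06, 0.10 and -0.52 in pairs 1 to 4, so the values below 0 were those of replicates 1 and 4. Without replicate 3 its value was -0.30, and without replicate 4 it was -0.04. *Arrdc2* had -0.20 ± 0.20 (SE), with -0.49 in both pairs 1 and 2 and values of 0.19 and 0.01 in pairs 3 and 4. *Arrdc1* had 0.05 ± 0.09 (SE), and pairs 1 and 2 were lower while pairs 3 and 4 were higher. *Arrdc4* had 0.17 ± 0.21 (SE), with 3 pairs higher by 0.19 to 0.27 and pair 4 at -0.003.

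**Figure D4:**
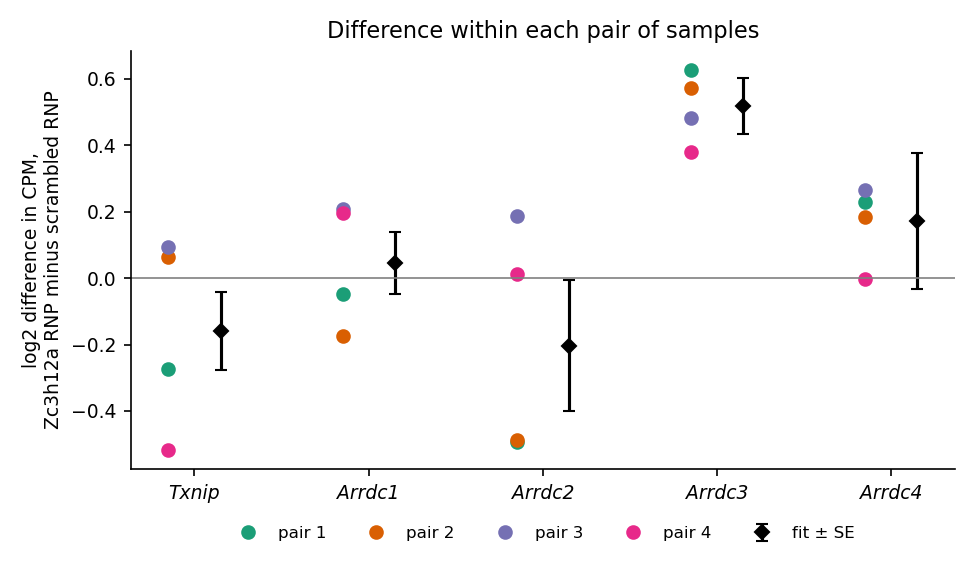
Log2 difference in CPM, Zc3h12a RNP minus scrambled RNP (vertical axis), for each alpha-arrestin, with coloured points for pairs 1 to 4 and black diamonds for the edgeR estimate ± SE. The 4 points of Arrdc3 lie between 0.38 and 0.63, and those of the other members lie on both sides of 0.

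By the rule for calls (edgeR quasi-likelihood test, Benjamini-Hochberg adjusted p at or under 0.05 and a log2 fold change beyond 0.5), 0 of 14934 genes tested were called (0%), the 5 members included, and nothing is read from this for the members because the contrast chose them. At an unadjusted p at or under 0.05 there were 922 genes (6.17%), of which 317 were higher and 605 lower in *Zc3h12a* RNP. DESeq2 called 55 genes and limma-trend 1. The lowest adjusted p over all genes in the edgeR test was 0.0558. Without replicate 2 the edgeR test called 137 genes, 80 higher and 57 lower.

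The pathway around the family was described by 10 lists with 103 genes, of which 97 were tested and 0 were called by the edgeR test. An unadjusted p of 0.05 or less was reached by 12 of them (12.4%), against 6.17% of all genes tested. The lists were chosen with earlier results of these data known. Nothing is therefore read from these shares, and the p-values of list genes below only describe them. Of all 14934 genes tested, 8635 were higher and 6299 lower, with a median log2 fold change of 0.04. The counts of list genes in each direction below are to be set beside these.

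Among the MLX and MAX network factors, which include the sensors upstream of *Txnip* and *Arrdc4*, 3 of 10 were higher and 7 lower, with a median of -0.15. *Mlxip*, which encodes MondoA, had 100 ± 18.4 CPM in scrambled RNP and 93.0 ± 23.3 CPM in *Zc3h12a* RNP. *Mlxipl*, which encodes ChREBP, had 0.622 and 0.451 CPM, from 6 to 29 counts per sample. The 2 genes with an unadjusted p at or under 0.05 were *Mxi1* (log2 fold change -0.41) and *Mxd1* (-0.24), both MAX-binding repressors. The glucose-responsive genes were evenly divided (5 higher and 5 lower of 10, median 0.001). Among the higher ones, *Pklr*, *Gpd1* and *Thrsp* were barely expressed, with 6 to 63, 1 to 21 and 2 to 29 counts per sample. *Hk2*, the first enzyme of glucose use, had the lowest unadjusted p of this list with -0.51 on the log2 scale, and all 4 pairs were lower.

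The FOXO-responsive genes had the lowest median of the 10 lists, -0.21, with 3 of 10 higher and 7 lower. *Pik3ip1*, an inhibitor of PI3 kinase, had 114, 54.3, 35.2 and 90.3 CPM in scrambled RNP replicates 1 to 4 and 55.1, 51.7, 22.7 and 48.9 CPM in *Zc3h12a* RNP. It was lower in 4 of 4 pairs (log2 fold change -0.66 ± 0.16, SE), although the groups overlapped. *Klf2*, a quiescence factor, had -0.49, *Irs2*, an insulin receptor substrate, -0.44, *Cdkn1b*, the cell cycle inhibitor p27, -0.31 and *Ccng2*, an atypical cyclin, -0.29. For these 5 the unadjusted p was at or under 0.05, and the lowest adjusted p over all 10 lists was 0.449. The list median was 0.08 in pair 2 and -0.26, -0.18 and -0.59 in pairs 1, 3 and 4. *Foxo1* and *Foxo3* had log2 fold changes of -0.09 and 0.02, and *Foxo4* had -0.27, the only one of 8 transcription factors upstream of *Txnip* with an unadjusted p at or under 0.05.

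On the side of the thioredoxin system, 11 of 15 genes were higher and 4 lower, with a median of 0.12. Taken pair by pair, this median changed sign: -0.07 (pair 1), -0.18 (pair 2), 0.34 (pair 3), 0.31 (pair 4). The list was therefore not raised throughout. *Txn1*, the thioredoxin that TXNIP binds, had 113, 137, 94.0 and 48.4 CPM in scrambled RNP replicates 1 to 4 and 106, 138, 146 and 79.8 CPM in *Zc3h12a* RNP. It was higher in pairs 3 and 4 and close to level in pairs 1 and 2, and its log2 fold change was 0.31 ± 0.15 (SE). *Srxn1*, with 0.30 ± 0.10 (SE), was higher in 4 of 4 pairs and was the only gene of the list with an unadjusted p at or under 0.05. *Txnrd1*, which reduces thioredoxin, had 0.24 ± 0.11 (SE).

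Of 8 glucose transporters tested, 3 were higher and 5 lower (median -0.15). *Slc2a1*, which encodes GLUT1, was at -0.39 ± 0.16 (SE) on the log2 scale with all 4 pairs lower, and its widest difference was in pair 4 (-1.05), in which the scrambled RNP sample had 218 CPM against 82.4 to 116 CPM in the other 7 samples. *Slc2a3*, which encodes GLUT3, had -0.17 ± 0.08 (SE).

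The partners of the *Arrdc* proteins showed small differences. *Nedd4* was the most abundant ligase of its list (888 ± 79.8 CPM in scrambled RNP and 874 ± 130 CPM in *Zc3h12a* RNP), and *Itch*, which ubiquitinates TXNIP, had a log2 fold change of -0.09. An unadjusted p at or under 0.05 was reached by 0 of 11 NEDD4 family genes (6 higher, 5 lower, median 0.02). *Tsg101*, the ESCRT partner of ARRDC1, had -0.05, and 1 of 13 ESCRT genes, *Mvb12b* (-0.18), had an unadjusted p at or under 0.05 (4 higher, 9 lower, median -0.05). The 5 cargo genes all had estimates above 0 (median 0.27), none with an unadjusted p at or under 0.05. Among them *Insr*, the insulin receptor, had 0.02 ± 0.09 (SE). The other arrestin-fold genes, with *Arrb1* at -0.12 and *Arrb2* at -0.09, had a median of 0.02 over 8 genes, 4 higher and 4 lower.

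**Figure D5:**
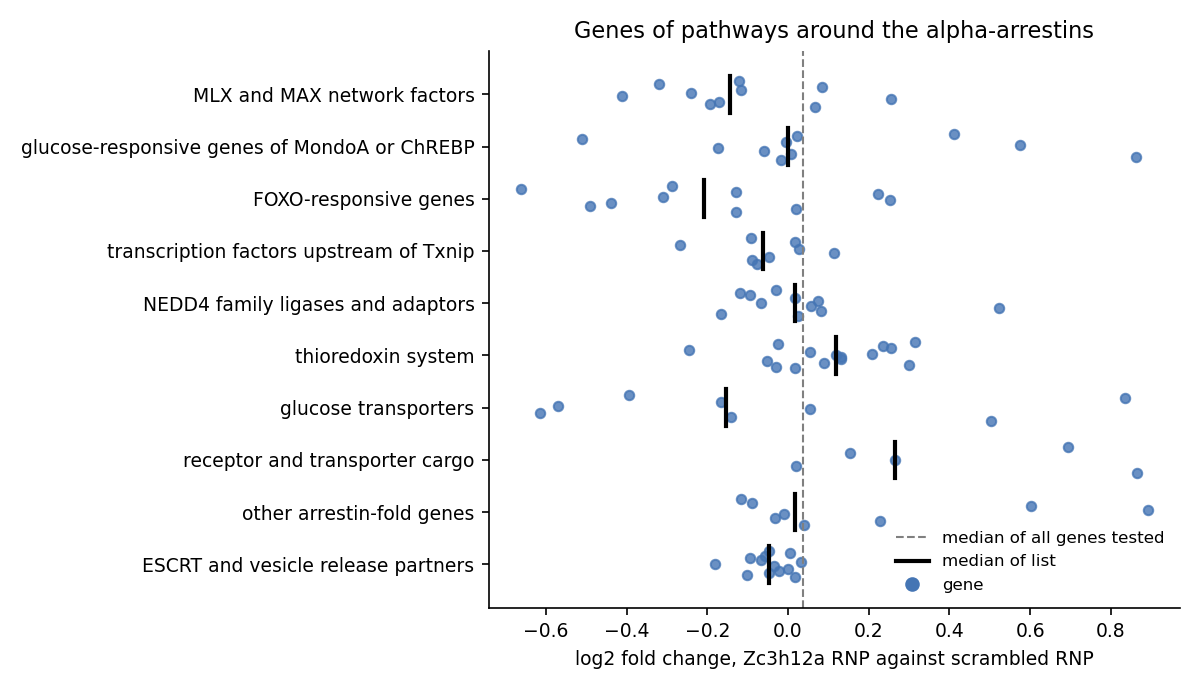
Log2 fold change of Zc3h12a RNP against scrambled RNP (horizontal axis) for the genes tested in 10 lists around the alpha-arrestins, with 1 point per gene, black bars for list medians and a dashed line for the median of all genes tested (0.04). The FOXO-responsive genes have the lowest median (-0.21) and the receptor and transporter cargo the highest (0.27).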

How the data were processed

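The deposited counts are whole-number counts per gene, 1 file per sample, which the authors made from paired-end reads with HISAT2 2.2.1 and featureCounts 2.0.1 after checks with FastQC 0.11.9. The 8 samples were grouped by their labels. From the deposited counts, edgeR 4.0.16 (R 4.3.3, limma 3.58.1) fitted replicate number plus RNP by quasi-likelihood, after filterByExpr and TMM scaling, with Benjamini-Hochberg adjustment over 14934 genes. The fitted difference, its SE and CPM (log2 CPM with a prior count of 2) were taken from this fit. CPM per kb divides by the Ensembl canonical transcript of GENCODE M39, and 22491 of 24059 symbols matched 1 transcript. Figures were drawn with matplotlib 3.10.9.

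The members and the lists were chosen with earlier results of these data known. The names printed are the members, the genes of the lists (at most 4 a list by size of difference, and those whose role is described), the targeted gene, marker genes and the 5 genes most correlated with each member. A few of these are not reported here. The promoter words, the genes that share paired CACGNG words, *Gm15441*, *Srxn1* as the most opposite gene and replicate 3 were chosen after sequences or values were seen. Samples of 1 group differed by more than counting noise (a chi-square of at least 53.6 for each degree of freedom). P-values of the paired fit rest on the spread left after the replicate block, so on how differences within pairs vary, and not on this spread between samples.

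Pairing follows the series design, in which cultures of the same mice received both RNPs, and the labels do not say which mouse a number marks. Deviations from the group means of same-numbered samples correlated at 0.76, 0.72, 0.73 and 0.72 over genes with a mean log2 CPM of 2 or more, against at most 0.14 for other numbers. Over all genes tested they correlated at 0.60, 0.08, 0.62 and 0.04, against at most 0.06, 0.40, -0.01 and 0.35 for other numbers, so replicates 2 and 4 were then closer to another number than to their own.

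Alternatives were DESeq2 1.42.0, limma-trend, no replicate block, other scalings, other filters and leaving out each replicate number.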

Additional observations from a re-analysis of the deposited data

Results flagged for a closer look

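In each of 22 groups of 4 samples (the members and the other genes given by sample, in each RNP group), the gap between the highest or lowest sample and its nearest neighbour was divided by the range of the group and compared with Dixon's 95% critical value for 4 samples. The ratio passed in 3 groups. Chance would flag about 1 in 20 groups of genes not chosen for their pattern, which does not hold here, since the groups share replicate numbers and *Srxn1* was picked as the gene most opposite to *Txnip* over the same 8 samples. *Srxn1* passed in both RNP groups through its high sample of replicate 3, with a ratio of 0.939 in scrambled RNP (251 CPM) and 0.839 in *Zc3h12a* RNP (262 CPM), which restates the pattern it was picked for. *Zc3h12a* passed in scrambled RNP through its low sample of replicate 1, with a ratio of 0.846 (24.95 CPM against 37.1 to 39.3 CPM). *Txnip*, low in the same replicate as *Srxn1* was high, did not pass, with 0.672 and 0.682. The ratios were taken on CPM, a scale on which a high sample stands out more, and a low one less, than on log2 CPM. The ratios of *Txnip* and *Srxn1* are therefore not compared.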

How the results depend on the processing

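Under all 12 alternatives the log2 differences of the 5 members moved by less than the SD of their pair differences. Leaving out a replicate number could hardly move an estimate that far, so this limit says little about those fits. *Arrdc3* ranged from 0.48 to 0.59, *Txnip* from -0.30 to -0.04, *Arrdc2* from -0.38 to -0.05 and *Arrdc4* from 0.09 to 0.24, while *Arrdc1* ranged from -0.06 to 0.18 and was below 0 without replicate 3 or 4. With no replicate block *Arrdc3* was at 0.52 with a larger SE (0.238 against 0.083), and 0 genes were called, as with the paired fit. The number of genes called over all genes was 55 with DESeq2 and the replicate block (7 higher, 48 lower), 1 with limma-trend, 1 with RLE factors, 40 with no low-count filter, 3 with at least 10 counts in every sample, and 0 to 137 when a replicate number was left out, with 137 without replicate 2 and 2 without replicate 4. Of the genes in the pathway lists, 2 were called with DESeq2 (*Hk2* and *Pik3ip1*), 1 with no low-count filter (*Pik3ip1*) and 0 to 1 when a replicate number was left out (*Pik3ip1* without replicate 2). The cause was not tested. The median log2 fold change over all genes was 0.04 with TMM, 0.02 with RLE factors, 0.05 with upper quartile factors and 0.11 with library totals. *Arrdc2* and *Arrdc4* rest on fewer counts than the other members, and their SEs were the largest of the family.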
